A study of Homo sapiens with 4 samples.

Results

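The genes studied here encode the RNA sensors of the innate immune system, the proteins that relay their signal and the interferons made in response. They are 10 genes, chosen by name: DDX58, IFIH1, DHX58 and TLR3 (sensors), MAVS (adaptor), IRF1 and IRF3 (transcription factors), and IFNB1, IFNK and IFNE (interferons). All 10 were found once each among the 19233 protein-coding genes of the files, which hold 44591 genes in all. RNA-seq was performed on untreated HaCaT cells in 4 biological replicates. HaCaT is a spontaneously immortalized epidermal keratinocyte line of human origin, grown here with fetal bovine serum, for which the labels and the methods of the study give different percentages. There was 1 group and no treated group, so the replicates were compared only with each other, gene by gene, and none was placed in a group by what was measured in it. The labels do not say how the cultures of the replicates differed. The replicates share 1 cell line and so do not sample donors.

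Cells detect viral RNA by its double-stranded form or its free 5′ triphosphate end. RIG-I (encoded by DDX58) and MDA5 (encoded by IFIH1) are cytosolic helicases that bind such RNA and pass the signal to MAVS on mitochondria, whereas TLR3 reads double-stranded RNA in endosomes and signals through the adaptor TICAM1. Kinases then activate IRF3, which switches on IFNB1 and the type III interferon genes, and secreted interferon in turn raises the genes of the helicases themselves. Keratinocytes are known to make interferon kappa without infection, and interferon epsilon is known from epithelia of the reproductive tract.

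The depth was 73082279 counts for replicate 1, against 17056035 to 19745170 for the other replicates. Replicate 1 stood apart: protein-coding genes took 76.1% of its counts against 95.3% to 96.4%, and its Spearman correlation with the others across 12165 genes was 0.754 to 0.780, against 0.944 to 0.967 among replicates 2 to 4. Levels are therefore given in TPM over protein-coding genes, which is the count per length scaled to 1000000 over these genes in each library. A gene with a mean TPM above 1 was called detected, and 3 counts or fewer in a library were treated as not shown. All 8 keratinocyte markers were detected, with a summed TPM of 9451 to 15229. Of 7 immune markers, 1 (CD14) was detected and 4 had at most 3 counts in every replicate, among them LILRA4 and CLEC4C, which mark the dendritic cells that specialize in interferon alpha. The summed TPM of the immune markers was 3.44 to 9.44. Of 6 fibroblast markers 2 were detected, of 4 melanocyte markers 1, and of 3 endothelial markers 0. Some markers not detected by their mean exceeded 1 TPM in 1 replicate. They were VWF (2.36) and DCN (1.63) in replicate 1, COL1A2 (2.10) and COL3A1 (2.72) in replicate 3, and CDH5 (1.49) in replicate 4.

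The promoters of DDX58, IFIH1 and IFNB1 are shown first, since IFNB1 is the textbook target of IRF3 and NF-κB, and DDX58 and IFIH1 are helicase genes known to be induced by interferon. RefSeq windows (GRCh38.p14, from 250 bases before to 50 bases after the start) were given for 8 of the 10 genes. Those of DHX58 and IRF3 were not analysed here. The lines give the 250 bases before the start, 5′ to 3′ on the strand of the gene, with capitals for every match, on either strand, to the core of the interferon-stimulated response element (GAAANNGAAA), to the IRF motif (AANNGAAA) or to the κB consensus. The IRF motif can overlap the response element.
DDX58 (chr9:32526197-32526446, minus strand): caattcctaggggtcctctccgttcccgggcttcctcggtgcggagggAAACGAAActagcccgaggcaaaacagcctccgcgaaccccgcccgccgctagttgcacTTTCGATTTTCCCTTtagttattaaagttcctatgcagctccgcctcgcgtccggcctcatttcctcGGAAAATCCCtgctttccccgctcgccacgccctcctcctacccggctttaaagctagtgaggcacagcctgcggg
IFIH1 (chr2:162318685-162318934, minus strand): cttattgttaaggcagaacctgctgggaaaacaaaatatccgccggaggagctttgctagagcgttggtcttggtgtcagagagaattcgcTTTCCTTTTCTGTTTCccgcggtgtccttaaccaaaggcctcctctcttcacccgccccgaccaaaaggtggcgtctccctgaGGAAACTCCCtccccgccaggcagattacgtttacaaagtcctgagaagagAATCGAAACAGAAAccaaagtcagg
IFNB1 (chr9:21077943-21078192, minus strand): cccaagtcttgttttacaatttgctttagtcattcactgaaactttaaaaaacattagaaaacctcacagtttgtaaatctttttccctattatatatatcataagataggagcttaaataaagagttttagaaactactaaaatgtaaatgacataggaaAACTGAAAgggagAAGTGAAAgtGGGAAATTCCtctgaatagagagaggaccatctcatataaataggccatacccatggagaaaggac

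The response element core was found in 2 of the 8 windows, those of IFIH1 (3 matches, whose first bases lie at -159, -153 and -21 from the start) and TLR3 (1 match, across the start site). Over all 35116 RefSeq windows of the same length, 3.57% held it. The IRF motif was found in 5 windows (DDX58, IFIH1, TLR3, IFNB1 and IFNK), against 22.8% of all windows, and the κB consensus in 4 (DDX58, IFIH1, IRF1 and IFNB1), against 11.3%. In IFNB1 the matches stood side by side, with the IRF motif at -89 and -76 and the κB site at -66. MAVS and IFNE held none of the 3 motifs in their windows. A match is a string of letters and not a measured binding site.

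The members differed widely in level (plot of levels by gene). IRF1 (94.5 ± 43.9 TPM, SD, n = 4), IRF3 (90.0 ± 15.2) and MAVS (61.8 ± 14.2) had the highest means. The helicase genes followed, with 34.8 ± 27.9 for IFIH1, 32.1 ± 27.4 for DHX58 and 31.6 ± 15.4 for DDX58. TLR3 had 7.16 ± 1.44, IFNE 1.53 ± 0.819, IFNB1 0.617 ± 0.918 and IFNK 0.0833 ± 0.111. Thus 8 of the 10 genes were detected, against 63.3% of all protein-coding genes, and IFNB1 and IFNK were not. In bulk RNA, fewer cells with a transcript and less of it per cell cannot be told apart. Among detected genes the mean of IRF1 stood at percentile 84.9, that of MAVS at 76.4, those of the helicases at 58.2 to 61.0 and that of TLR3 at 20.8.

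**Figure D1:**
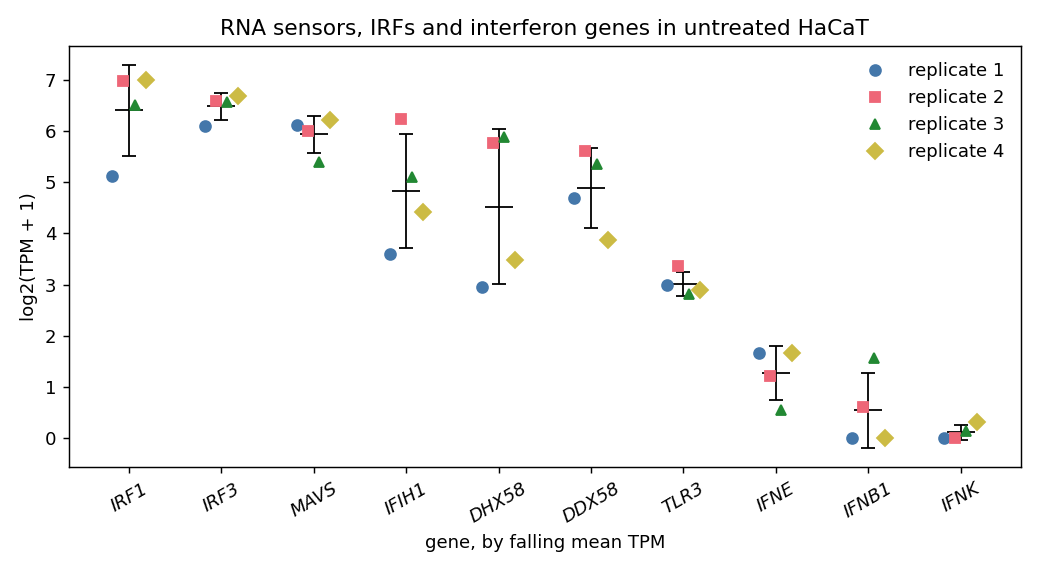
Level of each gene as log2(TPM + 1) in replicates 1 to 4 (coloured symbols), with the mean and SD over the 4 replicates (black bars), ordered by mean TPM. The replicates of TLR3 and IRF3 lie close together, those of IFIH1 and DHX58 are spread over 2.64 and 2.93, IFNK lies near 0, and IFNB1 lies at 0 except in replicates 2 and 3.

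Neighbours in the order of mean TPM were compared within replicates on the log2(TPM + 1) scale. The pairs and their order came from the same replicates, so the test cannot decide whether the order holds. Of 9 neighbouring pairs, 2 had the same order in 4 of 4 replicates: DDX58 exceeded TLR3 by 1.87 ± 0.69 (SD, n = 4), and TLR3 exceeded IFNE by 1.74 ± 0.54 (SD, n = 4). For both, an exact sign-flip permutation test (two-sided) gave p = 0.125, the smallest it can give with 4 replicates, and 0.562 after adjustment over the 9 pairs. IRF1 was above IRF3 in 2 of 4 replicates, with a difference of -0.08 ± 0.63 (SD, n = 4), so the means in TPM and the log2 difference point in opposite directions. DHX58 was above DDX58 in 2 of 4, with a difference of -0.36 ± 0.99. IFIH1 was above DHX58 in 3 of 4, by 0.32 ± 0.76. The order among the 3 helicases therefore changed between replicates, although without correction for length DHX58 was below DDX58 in 4 of 4.

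RIG-I, the product of DDX58 (chromosome 9, 32455300 to 32526322, minus strand, positions in hg19 as in the files), senses short RNA with a 5′ triphosphate. Its TPM in replicates 1 to 4 was 24.9, 48.1, 40.0 and 13.6. Replicates 2 and 3 were thus above replicate 1, and replicate 4 was lowest. The highest value was 3.53 times the lowest, a range of 1.75 on the log2(TPM + 1) scale, at the upper quartile of the 12165 detected genes. Without replicate 4 the range was 0.92.

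MDA5, the product of IFIH1 (chromosome 2, 163123589 to 163175218, minus strand), senses long double-stranded RNA. Its TPM was 11.1, 74.4, 33.3 and 20.4 in replicates 1 to 4, from 971, 1781, 1078 and 547 counts. Replicate 2 was more than 2 times any other, and the order below it was replicate 3, replicate 4 and replicate 1. The range of 2.64 exceeded that of 91.1% of detected genes. It fell to 1.82 without replicate 1 and to 1.50 without replicate 2, both below the limit of 2 (a difference of 4 times in TPM + 1) above which a range was called wide.

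LGP2, the product of DHX58 (chromosome 17, 40253422 to 40264751, minus strand), binds RNA but lacks the signalling domains of RIG-I and MDA5 and tunes their output. Its TPM was 6.76, 53.3, 58.0 and 10.2 in replicates 1 to 4, with 2 high and 2 low values and a gap between 10.2 and 53.3. The highest value was 8.58 times the lowest. Its range of 2.93, larger than that of 93.6% of detected genes, stayed between 2.40 and 2.93 when any 1 replicate was left out. Wide ranges were found for 2 of the 10 members, IFIH1 and DHX58, or 25% of the 8 detected members, while 18.3% of all detected genes had one. The median range was 1.44 over the 8 detected members and 1.16 over all detected genes. Without replicate 1, 1.75% of detected genes had a wide range, and DHX58 was the 1 member among them.

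The make-up of the helicase set changed between replicates along with its size. The summed TPM of the 3 genes was 42.8 and 44.2 in replicates 1 and 4, and 176 and 131 in replicates 2 and 3. DDX58 made up 58.2% of the sum in replicate 1, whereas its share elsewhere was 27.3% to 30.8%. The share of DHX58 in replicates 1 to 4 was 15.8%, 30.3%, 44.2% and 23.1%. IFIH1 led in replicates 2 and 4, with 42.3% and 46.1%, and had 25.9% and 25.4% in replicates 1 and 3. A different gene therefore led in replicate 1 (DDX58), in replicates 2 and 4 (IFIH1) and in replicate 3 (DHX58). The lead of DHX58 in replicate 3 rests on the correction for length, as DDX58 had 1709 counts there and DHX58 1365. Without that correction the log2 difference of DHX58 minus DDX58 was -1.21 ± 0.99 (SD, n = 4).

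Ratios of counts per kilobase within a library do not depend on its scaling (plot of ratios), but they are not corrected for base composition. From replicate 1 to replicate 4, DHX58 over DDX58 was 0.271 (95% Clopper-Pearson interval 0.245 to 0.300), 1.11 (1.02 to 1.20), 1.45 (1.35 to 1.56) and 0.750 (0.633 to 0.887). No interval overlapped another, so the replicates differed by more than counting error. IFIH1 over DDX58 was 0.445 (0.414 to 0.479), 1.55 (1.44 to 1.66), 0.833 (0.771 to 0.900) and 1.50 (1.32 to 1.70) in replicates 1 to 4. Here the intervals of replicates 2 and 4 overlapped, although the summed level of the helicases differed between these replicates. DHX58 over IFIH1 was 1.74 (1.61 to 1.89) in replicate 3, whereas the other replicates had 0.500 to 0.717. Such intervals hold counting error alone, because without molecular identifiers several reads can come from 1 molecule.

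**Figure D2:**
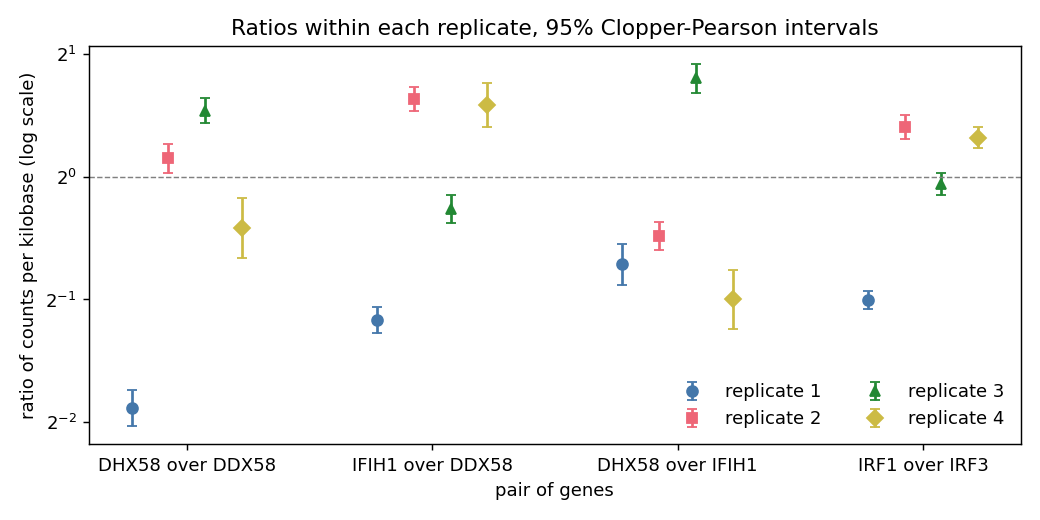
Ratio of counts per kilobase between pairs of genes in each replicate (symbols), with 95% Clopper-Pearson intervals (bars), on a log scale; the dashed line marks equal levels. DHX58 over DDX58 runs from 0.271 in replicate 1 to 1.45 in replicate 3, and IRF1 over IRF3 lies at 0.499 in replicate 1, below its other values of 0.960 to 1.32.

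Deviations of genes in replicate 1 went with base composition. Across 11889 genes, the Spearman correlation of GC content with a gene's deviation from its mean was -0.51 in replicate 1 and 0.24 to 0.38 in replicates 2 to 4. The mean is over all 4 replicates, so the deviations balance within a gene and these correlations are not independent. IFIH1 has a GC content of 43.3%, and genes of its GC bin were raised in replicate 1 (median 0.46 on the log2 scale), whereas IFIH1 itself deviated by -1.24. DDX58, with 40.5%, deviated by -0.19 where its bin had a median of 0.52. DHX58 has 58.2% GC and deviated by -1.57, against -0.46 for its bin. The bins of DDX58 and DHX58 thus went in opposite directions in replicate 1. That replicate had the lowest ratio of DHX58 to DDX58 and the highest share of DDX58, and the part of base composition in these values was not tested. After each replicate was centred within GC bins, a step chosen after seeing the data, the ranges of IFIH1 and DHX58 were 3.13 and 2.59 and that of DDX58 was 1.91, so the same 2 members had wide ranges.

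TLR3 (chromosome 4, 186990309 to 187006252, plus strand) is the endosomal sensor of double-stranded RNA. Its TPM was 6.94, 9.25, 6.04 and 6.40 in replicates 1 to 4. The replicates lay close together, with a highest value 1.53 times the lowest, and 12.6% of detected genes had a smaller range. TLR3 has 37.6% GC and deviated by -0.02 in replicate 1, where its GC bin had a median of 0.66. After centring within GC bins its range was 1.10, against 0.54 before. Replicate 3, where DHX58 was highest, had the lowest TLR3. Per kilobase, DDX58 had 3.59 (3.27 to 3.95), 5.20 (4.46 to 6.08), 6.62 (5.64 to 7.82) and 2.13 (1.76 to 2.58) times the reads of TLR3 in replicates 1 to 4.

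MAVS (chromosome 20, 3827446 to 3856770, plus strand), the mitochondrial adaptor shared by RIG-I and MDA5, had a TPM of 68.9, 63.4, 41.5 and 73.6 in replicates 1 to 4. Replicate 3 was the lowest, and the other 3 lay within 63.4 to 73.6. The range was 0.81, and 29.1% of detected genes had a smaller one. Set against the sensor IFIH1, MAVS had 6.21 (5.82 to 6.63), 0.853 (0.808 to 0.901), 1.24 (1.16 to 1.33) and 3.61 (3.31 to 3.94) times the reads per kilobase in replicates 1 to 4. MAVS was thus below IFIH1 in replicate 2 and above it in the others. That order in replicate 2 rests on the correction for length: without it MAVS was above IFIH1 in 4 of 4 replicates, with a mean log2 difference of 2.81 ± 1.30 (SD, n = 4). The length used for MAVS in the files, 11771 bp, is the largest of the 10 genes, and without correction for length the log2 difference of IRF3 minus MAVS was -1.98 ± 0.49 (SD, n = 4), against 0.55 ± 0.49 with it.

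IRF3 (chromosome 19, 50162826 to 50169132, minus strand) is present in most cells as a latent factor that is activated by phosphorylation. In replicates 1 to 4 it had a TPM of 67.9, 94.9, 94.3 and 103. Replicate 1 was lowest, and the other 3 lay close together. Its range of 0.59 was among the smaller ones, with 15.3% of detected genes below it, and was 0.12 without replicate 1. The GC content of IRF3 is 61.5%, and in replicate 1 it deviated by -0.38, against a median of -0.49 in its GC bin. After centring within GC bins its range was 0.28, against 0.59 before. The part of base composition in the lower value of replicate 1 was not tested. IRF3 overlaps BCL2L12 on the opposite strand over 734 bases. BCL2L12 had 14.3 TPM in replicate 1, below the 64.8 to 70.8 of the other replicates. Its part in the IRF3 counts was not tested.

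IRF1 (chromosome 5, 131817301 to 131826465, minus strand) is made on demand after interferon or NF-κB signals and acts on many of the same promoters. Its TPM was 33.9, 126, 90.5 and 128 in replicates 1 to 4. Replicate 4, which was low for DDX58 and DHX58, had the highest IRF1, and replicate 1 had the lowest. The range of 1.89 was 0.50 without replicate 1. The ratio of IRF1 to IRF3 per kilobase was 0.499 (0.475 to 0.525), 1.32 (1.24 to 1.42), 0.960 (0.903 to 1.02) and 1.25 (1.17 to 1.32) over replicates 1 to 4. In replicate 3 the interval included equal levels, and those of replicates 2 and 4 overlapped. In replicate 1 IRF1 deviated by -1.28, while genes of its GC bin had a median of -0.24.

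**Figure D3:**
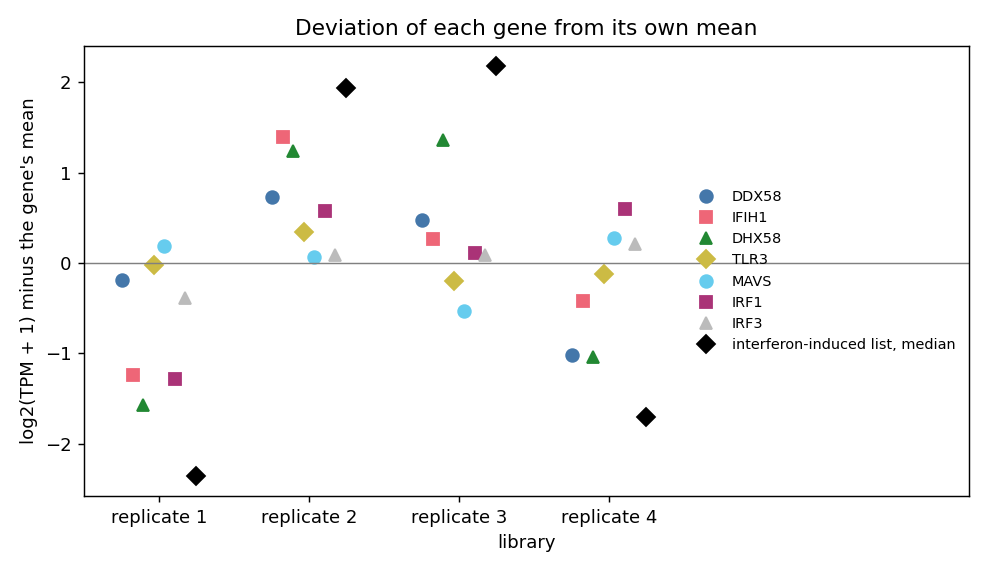
Deviation of 7 genes from their own mean log2(TPM + 1) in each replicate (coloured symbols), beside the median deviation of 15 interferon-induced genes (black). DDX58, IFIH1 and DHX58 lie on the side of the median of the interferon-induced genes in all 4 replicates, while IRF1 in replicate 4 lies at 0.60 where their median is at -1.70. In replicate 1 DDX58 lies at -0.19 where that median is at -2.35. The share of all detected genes on the same sides was not counted.

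Of the 8 detected members, 3 had their highest TPM in replicate 2 (DDX58, IFIH1 and TLR3), 1 in replicate 3 (DHX58) and 4 in replicate 4 (MAVS, IRF1, IRF3 and IFNE). Replicate 1 held the highest value of 0 members, while 40.2% of all detected genes had theirs there. Replicates 2, 3 and 4 held it for 23.3%, 13.3% and 23.3% of detected genes.

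The genes with the profile most like those of IFIH1 and DHX58 were sought among 12164 genes, by the root mean square difference of centred log2(TPM + 1) over the 4 replicates. For DHX58 these were HSH2D (difference 0.07), HERC5 (0.15) and EPSTI1 (0.16). HERC5 attaches the ubiquitin-like protein ISG15 to other proteins and is induced by interferon. HSH2D had a TPM of 0.455, 10.6, 11.4 and 1.35 in replicates 1 to 4. For IFIH1 they were DKK1 (0.14), a secreted inhibitor of WNT signals, NT5E (0.15), a cell surface enzyme that makes adenosine, and DDX60L (0.15), a helicase related to DDX60. DKK1 had 75.1, 392, 235 and 129 TPM. The 4 replicates give few points for a profile, and a small difference does not show shared control.

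The interferon genes among the members were close to the limit of detection (plot of interferon genes). IFNB1, IFNE, IFNK and DDX58 all lie on chromosome 9. IFNB1 (21077104 to 21077962, minus strand) and IFNE (21480838 to 21482312, minus strand) mark the ends of a cluster of 16 interferon genes over 405 kb, IFNK (27524312 to 27526496, plus strand) lies 6042 kb farther on, and DDX58 lies 4929 kb beyond IFNK. Of the 16 genes of the cluster, 9 had no count in any replicate and 5 had 1 to 3 counts in all.

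IFNB1 encodes interferon beta, the first interferon made by most infected cells. It had 0 counts in replicates 1 and 4, 3 in replicate 2 and 15 in replicate 3. It was thus shown in replicate 3, at 1.94 TPM (95% exact Poisson interval 1.09 to 3.20), and was not shown in the others. The interval of replicate 2, 0.108 to 1.54 TPM, overlapped that of replicate 3, and the difference between these replicates was not tested. The 3 counts taken as the limit equal 0.144 TPM in replicate 1 and 0.469 in replicate 4, both below the interval of replicate 3. The lower end of the interval of replicate 3 was 7.57 times this limit in replicate 1, the deepest library, and 2.32 times in replicate 4. The intervals at 0 counts reach up to 0.177 TPM in replicate 1 and 0.576 in replicate 4. These ends lie above the limit and below the interval of replicate 3, so the folds are not lower bounds.

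IFNK encodes interferon kappa, named for its expression in keratinocytes. It had 0 counts in replicates 1 and 2, 1 in replicate 3 and 2 in replicate 4. All 4 values were at or below the limit, which equals 0.108 TPM in replicate 1 and 0.293 to 0.396 in the others. The exact Poisson intervals of the counts reach higher, up to 0.133, 0.487, 0.544 and 0.851 TPM in replicates 1 to 4. IFNK lies within MOB3B, on the opposite strand, which had 552 to 966 counts. Interferon kappa RNA was thus not detectable at this depth in untreated HaCaT.

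IFNE encodes interferon epsilon, which is expressed constitutively and not induced by viral RNA. In replicates 1 to 4 it had 77, 13, 6 and 24 counts, above the limit each time. The TPM was 2.15 (95% exact Poisson interval 1.70 to 2.69), 1.33 (0.706 to 2.27), 0.453 (0.166 to 0.985) and 2.18 (1.40 to 3.25). The interval of replicate 3 lay below those of replicates 1 and 4, and overlapped that of replicate 2. IFNE and IFNB1 were in opposite order in replicate 3, where IFNE had 0.233 times the reads of IFNB1 per kilobase (0.0741 to 0.635). IFNE lies within MIR31HG, a noncoding gene on the same strand, which had 15.1, 7.63, 7.04 and 10.3 counts per 1000000 in replicates 1 to 4 where IFNE had 1.38, 0.800, 0.318 and 1.31. Both were higher in replicates 1 and 4 than in replicates 2 and 3, and the part of MIR31HG reads in the IFNE counts was not tested.

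**Figure D4:**
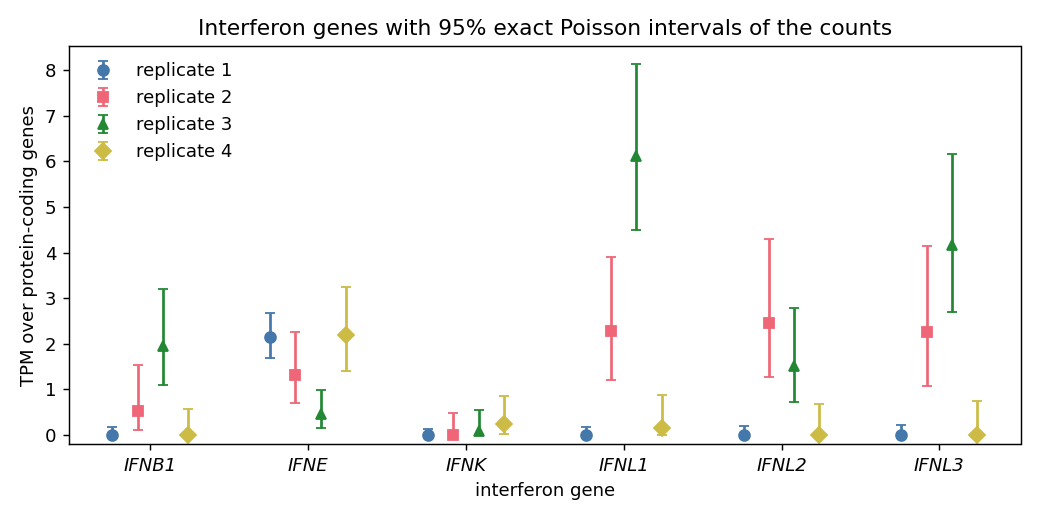
TPM of 6 interferon genes in each replicate (symbols), with 95% exact Poisson intervals of the counts (bars). IFNB1 and IFNL1 to IFNL3 have their higher values in replicates 2 and 3, IFNE has its highest value, 2.18 TPM, in replicate 4, and IFNK lies at or below 0.235 TPM throughout.

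Other interferon genes were taken from a list of 19, of which 18 were protein-coding rows and 2 were detected. These were IFNL1 and IFNL3, type III interferons that act mainly on epithelial cells. IFNL1 had 0, 13, 47 and 1 counts in replicates 1 to 4, or 0, 2.28, 6.11 and 0.157 TPM. IFNL2 had 0, 12, 10 and 0 counts and IFNL3 0, 10, 25 and 0, although these genes are near-identical copies and the split of reads between them is uncertain. Their sum with IFNL1 was 0, 35, 82 and 1 counts. The values were higher in replicates 2 and 3, the replicates with counts of IFNB1. Per kilobase IFNL1 had 3.14 times the reads of IFNB1 in replicate 3 (1.73 to 6.05) and 4.35 times in replicate 2 (1.19 to 23.8), where IFNB1 was at the limit of 3 counts. The 13 IFNA genes together had 0, 1, 6 and 0 counts. They share long stretches of sequence, so single genes are not given.

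Of 12 other RNA sensors and effectors of the pathway, 9 were detected and 6 had a wide range, where 18.3% of all detected genes had one. OAS3, which makes the messenger that activates RNase L, had 23.1, 620, 433 and 108 TPM in replicates 1 to 4. OAS1 had 29.2, 299, 334 and 20.8 and OAS2 4.53, 154, 121 and 5.96. IFIT1, which binds RNA with a foreign 5′ end, had 15.6, 117, 204 and 10.4. ADAR, the enzyme that edits double-stranded RNA and keeps MDA5 from reading the cell's own RNA, had 98.0, 290, 184 and 156, with a range of 1.56. TLR7 and TLR8, the endosomal sensors of single-stranded RNA in immune cells, had at most 1 count in any replicate, and ZBP1 had 0, 2, 18 and 0. Many of these genes are themselves induced by interferon, as are the 3 helicase genes.

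All 12 adaptors and kinases that link the sensors to the IRF proteins were detected, and 1 had a wide range, TICAM1, the adaptor of TLR3. It had 4.64 TPM in replicate 1 and 94.1, 55.4 and 52.6 in replicates 2 to 4. Its GC content is 63.0%, and in replicate 1 it deviated by -2.66, against a median of -0.55 in its GC bin. FADD had 105 to 179 TPM, TRAF2 43.3 to 118 and TRADD 56.6 to 84.8. TBK1, the kinase that phosphorylates IRF3, had 42.9 TPM in replicate 1, above the 12.7 to 21.6 of the other replicates. Its GC content is 39.3%, and in replicate 1 it deviated by 0.90, against a median of 0.59 in its GC bin. After centring within GC bins the range of TBK1 was 0.58, against 1.68 before, and that of TICAM1 was 3.26, against 4.08. The median range of the list was 1.10, near that of all detected genes (1.16).

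Of 10 ubiquitin enzymes and regulators of RIG-I, all were detected and 1 had a wide range, TNFAIP3 (A20), an inhibitor of NF-κB signals. It had 17.0, 141, 54.6 and 64.0 TPM in replicates 1 to 4, with its highest value in replicate 2. TRIM25, the ubiquitin ligase linked to RIG-I activation, had 38.3, 123, 114 and 88.3, with a range of 1.65. PCBP2, which promotes the breakdown of MAVS, had 93.3 to 302 TPM and was the highest of the list.

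Among the other IRF genes, 5 of 7 were detected and 2 had wide ranges, IRF7 and IRF9. IRF7, which widens the interferon response once it is under way, had 35.6, 302, 376 and 35.9 TPM in replicates 1 to 4. Its ratio to IRF3 per kilobase was 0.525 (0.495 to 0.555), 3.19 (2.99 to 3.40), 3.98 (3.78 to 4.20) and 0.350 (0.317 to 0.385). IRF7 was thus below IRF3 in replicates 1 and 4 and above it in replicates 2 and 3. IRF9, the DNA-binding part of the complex that interferon activates, had 78.2, 215, 183 and 34.7. IRF4 and IRF8, factors of blood cells, had 0 to 7 counts.

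Of 5 genes that sense cytosolic DNA or limit it, 4 were detected and 0 had a wide range. IFI16 had 146 to 242 TPM, TMEM173 (STING) 17.3 to 39.1, MB21D1 (cGAS) 12.2 to 31.4 and TREX1 18.7 to 30.2. The 15 interferon-induced genes had median TPM values of 8.34, 119, 146 and 8.47 in replicates 1 to 4, and 14 had a wide range, all but IFIT5. MX1, a GTPase that blocks viral ribonucleoproteins, had 3.88, 328, 344 and 8.47 TPM. Like DHX58, MX1 was high in replicates 2 and 3 and low in replicates 1 and 4.

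**Figure D5:**
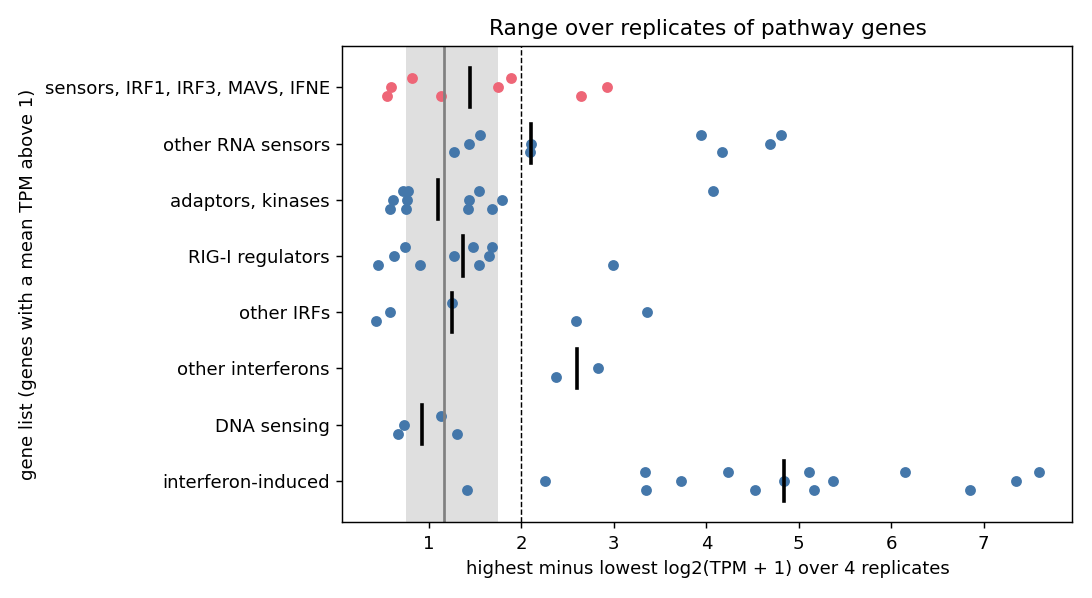
Highest minus lowest log2(TPM + 1) over the 4 replicates for each gene with a mean TPM above 1 (points), by list, with the median of each list (black bars). The grey line and band give the median (1.16) and the middle of all detected genes (0.75 to 1.75), and the dashed line the limit of 2: of the members IFIH1 and DHX58 lie beyond it, and of the 15 interferon-induced genes 14 do.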

How the data were processed

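Gene tables of 4 untreated HaCaT replicates were used. The authors deposited raw counts per gene, without normalization, RPKM for replicates 1 and 2 and TPM for replicates 3 and 4, over all 44591 rows. The submitters' processing notes name HISAT2, HISAT, TopHat2, Bowtie2 and hg19. Their roles, the counting program, the use of strand and the annotation are not given in the sources used here. TPM was recomputed from the deposited counts and lengths over protein-coding rows, because the deposited units differ and other RNA classes take more of replicate 1.

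The genes and lists were chosen with earlier results of these data known. All 10 genes are named; from each list, up to 4 genes with the highest mean and up to 4 with the widest range; the 3 nearest profiles of genes with a range above 2; and genes overlapping a member. The values of 1 listed gene are not reported here. Listed genes that were not detected, gene sums and genes given by ratio were named after their values were seen. Differences within replicates were tested with a two-sided exact sign-flip permutation test, with Benjamini-Hochberg adjustment. No model of differential expression was fitted, as there is 1 group. SDs measure the spread between these samples. P-values are of mean differences between neighbouring genes within these replicates. The differences between replicates may be partly technical. Total counts were 17056035 to 73082279. Intervals (95%, Clopper-Pearson or Poisson) cover counting error only. Range and profile steps were tested on simulated data. GC content is of the longest coding transcript in GENCODE release 29, found for 97.7% of detected genes. Alternatives were TPM over all rows, counts per 1000000, upper-quartile and TMM (edgeR 4.0.16) scaling, a pseudocount of 0.1, other detection limits, no filter, each replicate left out and, added later, GC bins. Scripts ran under Python 3.11.15 with SciPy 1.17.1, NumPy 2.4.6, matplotlib 3.10.9 and pandas 2.3.3.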

Additional observations from a re-analysis of the deposited data

Results flagged for a closer look

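Replicates were compared within 24 sets of 4 values, and in 1 of them a replicate lay farther from the others than Dixon's 95% limit allows, where chance gives about 1 in 20. The median TPM of the 4 detected genes of cytosolic DNA sensing was 35.3 in replicate 2, against 24.4 to 25.1 in the others.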

How the results depend on the processing

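The counts of detected members (7 to 9), of detected listed genes (53 to 60 of 79) and of listed genes with a wide range (23 to 38) stayed within 1.5 times their values under each alternative tried for them. With TPM over all rows the count of members with a wide range was 5 (background, the share of all detected genes, 37.5%). That setting shifted the median gene of replicate 1 by -1.56 on the log2 scale. The count was 3 with a pseudocount of 0.1 (background 25.4%). It ran from 1 to 2 when 1 replicate was left out (background 1.75% to 17.0%). IFIH1 lost its wide range without replicate 1 and without replicate 2. Of the neighbouring pairs, 5 had one order in all replicates without length correction, and 2 to 4 when a replicate was left out. The median range of the members ran from 0.60 (without replicate 3) to 1.31 when a replicate was left out. The median level over the members then ran from 23.3 to 38.5 TPM. Without length correction IRF1 exceeded IRF3 by 0.73, IRF3 minus MAVS was -1.98 and DHX58 minus DDX58 was -1.21. With 1 replicate left out, IRF1 minus IRF3 ran from -0.24 to 0.22 and DHX58 minus DDX58 from -0.66 to 0.10, both above 0 only without replicate 1. The cause of these shifts was not tested. Centring within GC bins, chosen after seeing the data, kept the same 2 members wide (background 12.3%). No paired analysis was possible because there is 1 group and so no pair of groups with shared replicate numbers, although genes were compared within replicates. Counts of 3 or fewer limit IFNB1 and IFNK.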
